A study of Homo sapiens with 6 samples.

Results

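Cytochrome P450 genes outside family 1 were examined in A549 cells, a human lung adenocarcinoma cell line, after depletion of METTL3, the catalytic subunit of the complex that writes N6-methyladenosine (m6A) on messenger RNA. Members were the rows whose symbol is CYP followed by a family number, a subfamily letter and a gene number. CYP1A1, CYP1A2 and CYP1B1 of family 1 and the sterol demethylase CYP51A1 were left out, as was CYP2D7, which RefSeq lists as a pseudogene and GENCODE as protein-coding. This left 51 genes of the 57781 rows of the table. RNA sequencing gave 3 libraries of cells carrying the control vector (vector) and 3 of cells in which METTL3 was knocked down by short hairpin RNA (shMETTL3), all grown in the same serum-containing medium. Hairpins were expressed from a pSuper-neo plasmid. The sources used here do not give how many hairpin sequences were used. The sample titles call the shMETTL3 libraries replicates, but the count table numbers them as sh1, sh2 and sh3, so they may be repeats of 1 hairpin or carry 3 different ones. The study's methods speak in general of independent repeats of its experiments but do not say what separated these libraries. The SDs and p-values therefore measure the spread between these libraries, which may be technical or may include differences between hairpins.

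P450 enzymes are heme proteins that insert an oxygen atom into a substrate, with electrons passed on by partner proteins. Microsomal members take their electrons from P450 oxidoreductase, and mitochondrial members take them from ferredoxin and its reductase. Members of families 2 and 3 are best known for drug and toxicant metabolism in the liver, family 4 for oxidation of fatty acids and eicosanoids, and the higher-numbered families for steps in steroid, bile acid, vitamin D and retinoid metabolism. By known substrate, the 51 genes were placed in a xenobiotic group of 14, a fatty acid group of 14, a steroid and bile acid group of 12, a vitamin A and D group of 7 and an orphan group of 4 whose substrates are poorly settled.

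METTL3 itself was counted 887, 846 and 808 times in the vector libraries and 364, 399 and 307 times in the shMETTL3 libraries. In CPM, the counts relative to a library size scaled by edgeR's TMM method, this was 49.9 ± 0.676 (SD, n = 3) against 19.4 ± 0.525, a log2 fold change of -1.36 (SE 0.067, adjusted p = 4.57e-16 by the quasi-likelihood test of edgeR, with p-values adjusted over 15125 genes by Benjamini-Hochberg). Library totals ran from 14931426 to 19108928 counts, and a count of 3, taken as the floor, stood at 0.150 to 0.189 CPM, which covers counting error only. When libraries were scaled by their totals alone, the median over all genes shifted up by 0.17 on the log2 scale. The 6 epithelial markers tested, among them EPCAM and the simple keratins, were all expressed, but 5 of them were lower and 1 higher in shMETTL3, with summed levels of 9971 to 10634 CPM in vector and 5153 to 5602 CPM in shMETTL3. Of 6 alveolar type 2 markers 2 were tested. NAPSA was not called, and SFTPB, with 3, 1 and 1 counts in vector and 13, 24 and 11 in shMETTL3, entered the test through shMETTL3 alone, so that its call as higher was fixed by the filter. SFTPA1 was at 0 in every library, and the summed level was 2.08 to 2.23 CPM in vector and 2.69 to 3.21 CPM in shMETTL3.

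Of the 51 P450 genes, 16 passed the count filter, and 13 of these differed between shMETTL3 and vector at an adjusted p under 0.05, with 10 higher and 3 lower. Over all 15125 genes tested, 66.6% were called, 33.7% as higher and 32.9% as lower. In the xenobiotic group 3 of 3 tested genes rose, in the fatty acid group 3 rose and 2 fell, in the vitamin group 2 rose and 1 fell with 2 not called, and in the orphan group 2 rose with 1 not called. No gene of the steroid and bile acid group passed the filter. The median log2 fold change of the 16 genes was 0.63, against 0.0022 over all genes tested, and their median absolute change was 0.71 against 0.41. Of the 16 genes 2, CYP2E1 among them, passed the filter through the shMETTL3 libraries alone, which favours genes that are higher there. Both medians include these 2 genes and are raised by them. The same limit holds for 2 of the 3 xenobiotic calls and 2 of the 3 genes past a log2 change of 1. Among the 13 genes that passed it in both groups, 11 were called, 8 as higher and 3 as lower. An absolute log2 change of at least 1 was reached by 3 of the 16 genes, CYP2E1 and CYP27C1 among them, and by 17.6% of all genes. Vector and shMETTL3 libraries were fully separated for 14 of the 16 genes, all but CYP2R1 and CYP2W1, and for 69.4% of all genes.

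**Figure D1:**
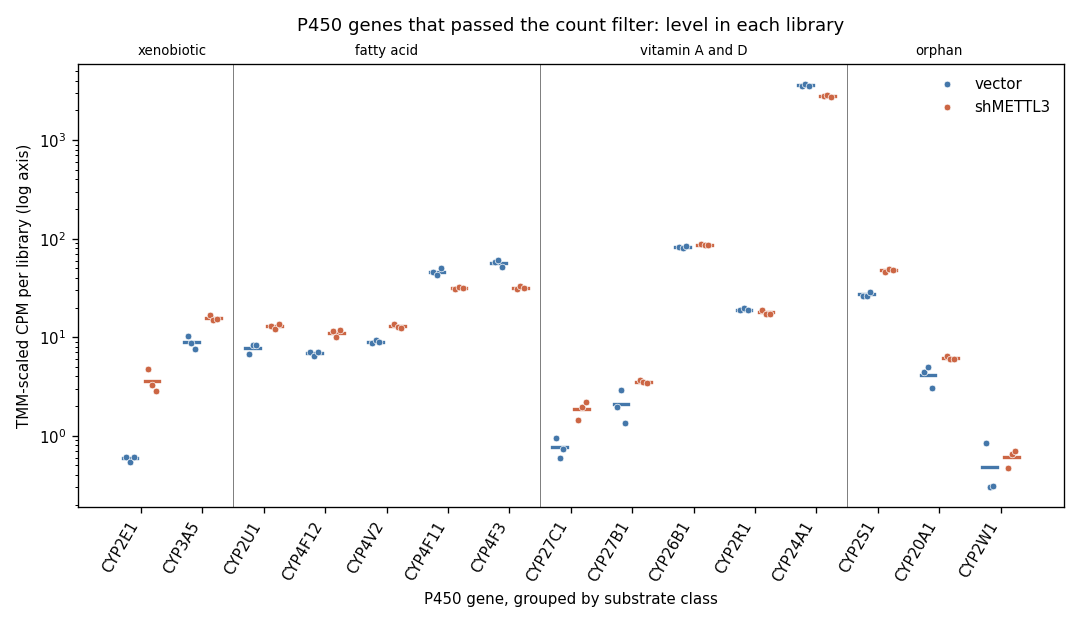
TMM-scaled CPM (log axis) of 15 tested P450 genes in each of the 6 libraries, with points for libraries and bars for group means, sorted by substrate class. CPM are not divided by gene length, so each gene is to be read across its own libraries. CYP24A1 stood at means of 3607 CPM in vector and 2799 CPM in shMETTL3, and both xenobiotic genes shown were higher in each shMETTL3 library than in any vector library.

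Levels of different genes were compared only per kilobase of exon, as CPM divided by the length of the exons in kilobases (RPKM). By that measure CYP24A1 led in both groups with mean levels of 904 RPKM in vector and 702 RPKM in shMETTL3, and it ranked at position 29 among the 13673 tested genes with an exon length. Its level was followed in vector by CYP26B1 at 17.1 RPKM, CYP4F11 at 12.4, CYP4F3 at 10.3 and CYP2S1 at 10.0. A further 10 genes had mean vector levels from 0.0611 RPKM for CYP2E1 to 4.24 RPKM for CYP2R1. In shMETTL3, CYP2S1 at 17.6 RPKM stood beside CYP26B1 at 17.8, and above CYP4F11 at 8.47 and CYP4F3 at 5.75. CYP24A1 alone made up 92.8 to 93.1% of all counts on the 51 genes in vector and 90.5 to 90.9% in shMETTL3, so a sum over the family mostly follows this gene.

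In the xenobiotic group, CYP2E1 showed a large rise on a low starting level and CYP3A5 a smaller one on a higher level. CYP2E1, which oxidizes ethanol and other small solvents in the liver, was counted 11, 9 and 10 times in vector and 91, 65 and 45 times in shMETTL3. These counts corresponded to 0.613, 0.539 and 0.613 CPM against 4.71, 3.24 and 2.83 CPM, so that the lowest shMETTL3 library was several times above the highest vector library. The fitted log2 fold change was 2.61 (SE 0.281, adjusted p = 4.72e-09 by the same edgeR test as all adjusted p-values that follow), with means of 0.588 ± 0.0428 and 3.60 ± 0.988 CPM (SD, n = 3). Since CYP2E1 passed the filter through shMETTL3 alone, its p-value is no support for the direction, and the counts are given as a description. The exons of CYP2E1 overlap exons on the opposite strand over 2483 bases, among them those of SYCE1, which was itself at 0 in all 6 libraries, and whether counting used the strand is not given in the sources used here.

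CYP3A5, which shares many drug and steroid substrates with the hepatic CYP3A4, went from 10.3, 8.68 and 7.66 CPM in vector to 16.9, 15.1 and 15.3 CPM in shMETTL3. All 3 shMETTL3 libraries lay above the vector libraries, with a log2 fold change of 0.83 (SE 0.108, adjusted p = 1.71e-07). Within the CYP3A cluster on chromosome 7 only CYP3A5 passed the filter. Of its 50-base windows 4.91% also occur in another P450 gene or pseudogene, most often CYP3A4, and such reads could be split. CYP3A4 had at most 6 counts in a library, CYP3A7 at most 4 and CYP3A43 at most 4. CYP2D6, another major drug oxidizer, was untested with 10, 8 and 13 counts in vector and 9, 9 and 11 in shMETTL3. Of its 50-base windows 41.2% also occur in another P450 gene or pseudogene, most often CYP2D7. Such reads could be split or lost, and the part of this in its low counts was not tested.

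The sequences just upstream of the transcription starts of CYP2E1 and CYP3A5 are shown because both genes rose and both windows hold the same receptor half-site. The RefSeq table held a start for 12 of the 16 tested genes, and CYP24A1, CYP27B1 and CYP4F12 were among those without one. Each is the 250 bases before the start in GRCh38.p14, written 5′ to 3′ on the gene's strand, at chr10:133527113-133527362 (plus strand) and chr7:99679997-99680246 (minus strand), and capitals mark AGGTCA, the half-site bound by many nuclear receptors.
CYP2E1: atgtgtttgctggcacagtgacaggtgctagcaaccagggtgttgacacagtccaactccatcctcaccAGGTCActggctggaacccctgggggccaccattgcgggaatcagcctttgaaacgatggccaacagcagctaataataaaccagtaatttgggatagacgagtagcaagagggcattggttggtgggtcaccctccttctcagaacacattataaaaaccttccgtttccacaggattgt
CYP3A5: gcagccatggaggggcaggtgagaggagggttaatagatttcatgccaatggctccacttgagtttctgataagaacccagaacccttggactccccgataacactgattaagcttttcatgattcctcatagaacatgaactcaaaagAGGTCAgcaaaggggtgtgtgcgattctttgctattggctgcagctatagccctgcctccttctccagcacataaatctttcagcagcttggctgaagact
Counting the base before the start as -1, the half-site lay at -181 to -176 in CYP2E1 and at -101 to -96 in CYP3A5. Searched on both strands, AGGTCA was found in 5 of the 12 tested P450 genes with a promoter sequence, the others being CYP27C1, CYP2S1 and CYP4V2, and in 14.6% of all 27305 genes with a promoter of that length, a gene counting when any of its starts had the motif. Counted by start, it was in 5 of the 17 promoters of tested P450 genes and 12.1% of all 35116. The half-site also occurred upstream of untested P450 genes. These were CYP3A4 (-157 to -152) and CYP3A7 (-156 to -151) beside CYP3A5, and CYP2B6, CYP4X1, CYP17A1, CYP19A1 and CYP21A2. It was thus not limited to genes that rose or were well expressed here. TATAAA was found upstream of CYP2E1, at -30 to -25, and of CYP26B1, and in 13.0% of all genes. The remaining motifs searched were CCAAT, in 6 of the 12 genes and 37.0% of all genes, GCGTG, in 3 and 36.2%, and TGACNNNGC, in 2 and 13.2%. A match describes the letters of this window and says nothing of binding.

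**Figure D2:**
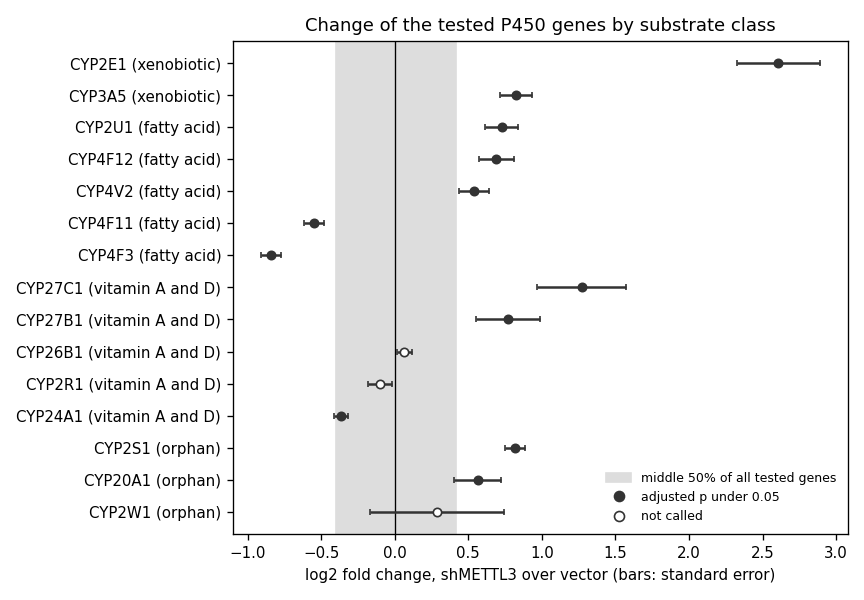
Fitted log2 fold change (shMETTL3 over vector) of 15 tested P450 genes with standard errors as bars, filled points for an adjusted p under 0.05 and open points for genes not called. The grey band holds the middle 50% of all tested genes. The xenobiotic genes CYP3A5 and CYP2E1 lie to the right at 0.83 and 2.61, while the fatty acid genes fall on both sides of 0, from -0.84 to 0.73.

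In the fatty acid group all 5 tested genes changed, but in opposite directions. The fallers were CYP4F3 and CYP4F11, and the risers were CYP4F12, CYP4V2 and CYP2U1. CYP4F3, an omega-hydroxylase that inactivates leukotriene B4, fell from 57.6, 61.0 and 52.2 CPM in vector to 31.1, 32.7 and 31.4 CPM in shMETTL3. The mean level in shMETTL3 was 55.7% of that in vector, and the lowest vector library stood well above the highest shMETTL3 library. The log2 fold change was -0.84 (SE 0.067, adjusted p = 1.23e-11). CYP4F11, which hydroxylates long-chain fatty acids and vitamin K, fell from 45.4, 43.0 and 50.1 CPM to 30.9, 32.4 and 31.4 CPM. Its groups did not overlap either, with a log2 fold change of -0.55 (SE 0.068, adjusted p = 6.28e-08).

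CYP4F12, an omega-hydroxylase of arachidonic acid that also takes some drugs, rose from 7.13, 6.40 and 7.11 CPM in vector to 11.7, 10.1 and 11.7 CPM in shMETTL3. Its log2 fold change of 0.69 (SE 0.116, adjusted p = 8.43e-06) was opposite in sign to those of the other two tested CYP4F genes. CYP4V2, a fatty acid hydroxylase of the eye in which mutations cause Bietti crystalline dystrophy, went from 8.64, 9.28 and 8.95 CPM to 13.6, 12.8 and 12.5 CPM. The change was 0.54 on the log2 scale (SE 0.103, adjusted p = 4.71e-05). CYP2U1, a hydroxylase of arachidonic acid and related fatty acids, stood at 6.80, 8.32 and 8.27 CPM in vector and at 13.1, 12.1 and 13.6 CPM in shMETTL3. Its log2 change was 0.73 (SE 0.112, adjusted p = 2.21e-06), and 539 bases of its exons overlap exons of 2 genes on the opposite strand, CYP2U1-AS1 among them. The untested CYP2J2, an arachidonic acid epoxygenase, had at most 4 counts in any library.

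The 3 tested CYP4F genes lie in 1 cluster on chromosome 19 in GRCh37. CYP4F3 (15751707 to 15773635) and CYP4F12 (15783828 to 15807984) are neighbours on the plus strand with 10192 bases between them, and CYP4F11 (16023177 to 16045677) lies on the minus strand beyond CYP4F2. The gene that rose therefore sits next to 1 of the genes that fell. The ratio of CYP4F12 to CYP4F3 counts within a library, which does not depend on scaling, was 0.122 ± 0.0158 in vector and 0.352 ± 0.0383 in shMETTL3 (SD, n = 3). The ratio of CYP4F12 to CYP4F11 was 0.149 ± 0.00755 and 0.354 ± 0.0372. Neither ratio overlapped between the groups. The two-sided exact permutation p was 0.1 for each, the smallest that 3 against 3 libraries can give. The ratios were chosen after the values were seen, so they are a description and the p supports nothing. CYP4F2, CYP4F8 and CYP4F22 of the same cluster were untested, with CYP4F2 at 7, 2 and 5 counts in vector and 2, 3 and 2 in shMETTL3, CYP4F8 at 0 throughout and CYP4F22 at no more than 3. Of the 50-base windows of CYP4F3, 9.29% also occur in another P450 gene or pseudogene, most often CYP4F2.

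**Figure D3:**
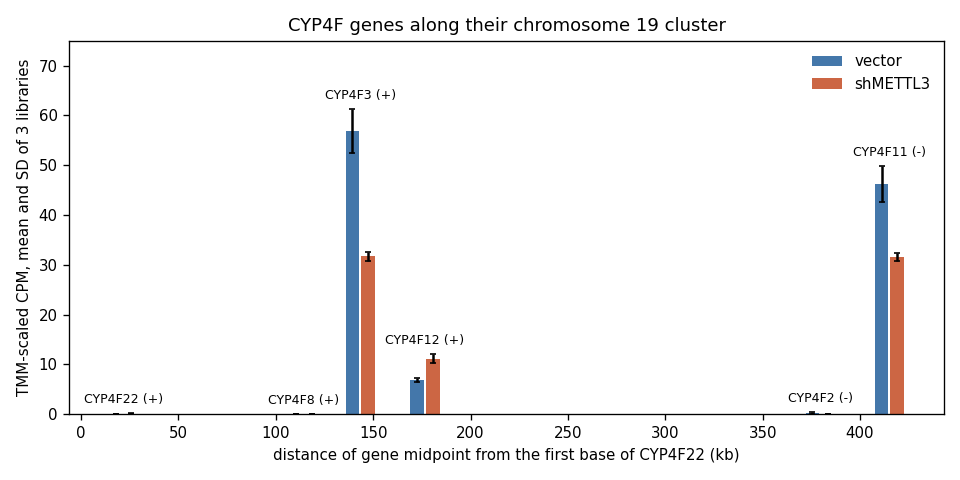
Mean TMM-scaled CPM with SD (3 libraries per group) of the 6 CYP4F genes, placed by the distance of the gene's midpoint in kilobases from the first base of CYP4F22, with the strand in parentheses. CYP4F3 and CYP4F11 were lower in shMETTL3, CYP4F12 between them was higher, and CYP4F22, CYP4F8 and CYP4F2 lay close to 0.

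The upstream sequences of both genes that fell are shown because they resemble each other. They are the 250 bases before the start of CYP4F3 (chr19:15641062-15641311, plus strand) and before the second of 2 RefSeq starts of CYP4F11 (chr19:15934530-15934779, minus strand) in GRCh38.p14, with capitals for runs of at least 10 aligned bases that are the same in both.
CYP4F3: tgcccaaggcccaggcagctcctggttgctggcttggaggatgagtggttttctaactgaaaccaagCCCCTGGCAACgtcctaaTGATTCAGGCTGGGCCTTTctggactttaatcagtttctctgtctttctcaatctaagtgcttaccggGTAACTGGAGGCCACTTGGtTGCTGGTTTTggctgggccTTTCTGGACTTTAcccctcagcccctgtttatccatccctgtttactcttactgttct
CYP4F11: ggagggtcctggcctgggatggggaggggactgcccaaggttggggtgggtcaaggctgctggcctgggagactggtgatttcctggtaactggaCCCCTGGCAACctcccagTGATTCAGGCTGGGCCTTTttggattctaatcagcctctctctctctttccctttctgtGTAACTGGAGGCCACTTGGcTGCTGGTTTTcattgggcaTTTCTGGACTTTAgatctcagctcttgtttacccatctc
The 5 shared runs hold 72 bases, the longest 19. Aligned end to end the sequences were 60.9% identical, against a median of 48.5% over 1147 pairs of P450 promoters. The first start of CYP4F11 was 46.2% identical to CYP4F3 but 64.3% to the untested CYP4F2 and 65.7% to CYP4F8, which was at 0 in every library, so likeness of sequence was not limited to genes expressed here.

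In the vitamin A and D group the most abundant member fell slightly while 2 low members rose. CYP24A1, the mitochondrial enzyme that degrades active vitamin D, stood at 3555, 3705 and 3560 CPM in vector and at 2783, 2860 and 2755 CPM in shMETTL3. All shMETTL3 libraries were below all vector libraries, at 77.6% of the vector mean, with a log2 fold change of -0.37 (SE 0.048, adjusted p = 1.89e-07). With scaling by library size alone it was -0.19. Its share of all counts was 0.327 to 0.352% in vector and 0.293 to 0.300% in shMETTL3. CYP27B1, which makes active vitamin D, had 35, 49 and 22 counts in vector and 71, 70 and 55 in shMETTL3, or 2.08 ± 0.80 and 3.54 ± 0.116 CPM. The vector libraries were widely spread, and the log2 fold change was 0.77 (SE 0.219, adjusted p = 0.00307). It became 0.54 without vector replicate 3 and 1.09 without vector replicate 2. Its exons share 107 bases with METTL1 on the same strand. The ratio of CYP24A1 to CYP27B1 counts, chosen after the values were seen, was 1909 ± 692 in vector and 790.5 ± 31.5 in shMETTL3 (SD, n = 3), with the same smallest possible two-sided exact permutation p of 0.1, which again supports nothing.

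CYP27C1, a retinoid desaturase of the skin, had 17, 10 and 12 counts in vector and 28, 39 and 35 in shMETTL3. These are 0.947, 0.599 and 0.736 CPM against 1.45, 1.95 and 2.2 CPM, with no overlap, and the log2 fold change was 1.27 (SE 0.302, adjusted p = 0.000554). CYP26B1, which clears retinoic acid, was well expressed at 82.8, 81.2 and 83.6 CPM in vector and 88.5, 85.3 and 85.2 CPM in shMETTL3. Each shMETTL3 library was above each vector library, but the log2 difference of 0.07 (SE 0.052, adjusted p = 0.277) was not called, whereas scaling by library size alone gave 0.24 (adjusted p = 0.000326). CYP2R1, the microsomal enzyme of the first hydroxylation of vitamin D, was not called either, at 19.1 ± 0.543 against 17.8 ± 1.04 CPM (log2 difference -0.10, SE 0.082, adjusted p = 0.301), and its sign turned with that scaling. Among the untested members of the group, CYP26A1 had 7 counts at most.

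Among the orphan P450 genes CYP2S1, an epithelial enzyme described in lung and skin, showed the clearest rise. It stood at 26.3, 26.3 and 28.8 CPM in vector and at 45.7, 49.4 and 48.2 CPM in shMETTL3, so the groups were far apart relative to their spread. Its log2 fold change was 0.82 (SE 0.067, adjusted p = 2.56e-11). CYP20A1, whose substrates are unknown, went from 79, 84 and 50 counts to 124, 121 and 96 counts, a log2 change of 0.56 (SE 0.159, adjusted p = 0.00286). Without vector replicate 3 its change was 0.38, and without vector replicate 2 it was 0.71. CYP2W1, described in tumours and fetal gut, had 15, 5 and 5 counts in vector and 9, 13 and 11 in shMETTL3, which overlap (log2 difference 0.29, SE 0.456, adjusted p = 0.586). Its difference was 0.96 without vector replicate 1 and 0.035 without vector replicate 2, and it was called in neither.

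No steroid or bile acid P450 reached the filter. Summed over the 12 genes, the counts were 42 in the vector libraries and 134 in the shMETTL3 libraries, and 7 of the 12 had no more than 3 counts in any library. CYP39A1, an oxysterol hydroxylase of bile acid synthesis, had 3, 6 and 5 counts in vector and 9, 23 and 9 in shMETTL3, the highest count of any untested member. CYP11A1, which cleaves the cholesterol side chain to begin steroid synthesis, had 10, 2 and 4 against 20, 14 and 8. When no filter was applied, 42 P450 genes entered the fit and 15 were called, with CYP11A1 (log2 1.24, adjusted p = 0.0315) and CYP39A1 (log2 1.38, adjusted p = 0.0191) added, and 36.8% of all 28913 genes were called. CYP17A1, CYP27A1, CYP46A1, CYP19A1, CYP7A1 and CYP7B1 had at most 10 counts in a library. CYP11B1, CYP11B2, CYP21A2 and CYP8B1 were at 0 in all 6 libraries. For CYP21A2 the 0 says nothing of its level, since 77.4% of 168 protein-coding genes in the surrounding major histocompatibility region of chromosome 6 were at 0, against 15.4% of 18960 over the genome. Of the adrenal markers STAR, MC2R and SULT2A1 were also at 0, HSD3B2 and MRAP had at most 1 count, and the summed level was 7.30 to 9.46 CPM in vector and 7.98 to 10.1 CPM in shMETTL3, nearly all NR0B1, which was not called.

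**Figure D4:**
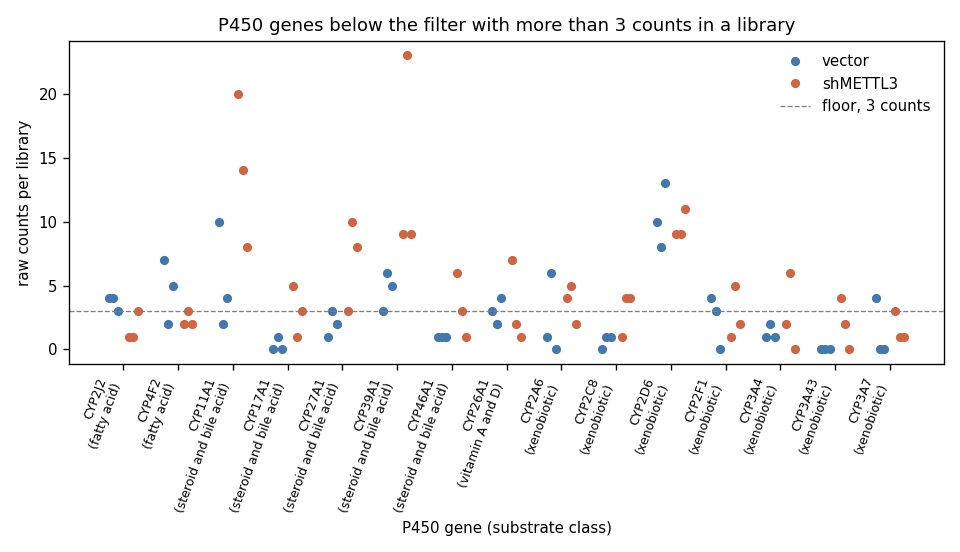
Raw counts per library of the 15 P450 genes that missed the filter but had more than 3 counts in some library, with the floor of 3 counts as a dashed line. CYP11A1 and CYP39A1 reached 20 and 23 counts in shMETTL3 libraries, while CYP2D6 stayed between 8 and 13 in all 6 libraries.

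In all, 35 P450 genes went untested. Of these, 9 were at 0 in every library, 11 had no more than 3 counts in any library and 15 had more in at least 1. Those at 0 were, besides the 4 steroid genes above, CYP2A13, CYP4A11, CYP4A22, CYP4F8 and CYP4Z1. Many of these have near-identical copies, and the share of 50-base windows that also occur in another P450 gene or pseudogene was 22.9% for CYP2A13, 38.6% for CYP4A11, 38.5% for CYP4A22, 28.2% for CYP4Z1 and 47.6% for CYP21A2. Among untested genes with a count it was 39.9% for CYP2A6, 35.4% for CYP2A7 and 20.6% for CYP2F1. Their low counts and zeros are uncertain for that reason, and the part of shared sequence in them was not tested. The summed count was higher in shMETTL3 for 21 of the 26 genes with a count and higher in vector for 5. With TMM-scaled CPM these were 20 and 6 genes. Over all 13788 untested genes with a count, the scaled sum was higher in shMETTL3 for 57.7%, and no test was made of these sums. Hepatocyte markers were uneven in the same libraries. Of 6 markers 3 were tested, of which FGA (log2 0.66) and APOH (log2 0.82) rose and TAT fell (log2 -1.25). APOA1 and TTR were at 0, ALB had at most 5 counts, and the summed level of all 6 was 1276 to 1310 CPM in vector and 2036 to 2071 CPM in shMETTL3, nearly all of it fibrinogen alpha (FGA). Their part in the rise of CYP2E1 and CYP3A5 was not tested.

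The electron donors and helper proteins of the P450 enzymes also changed, without a common direction. Of 10 listed genes 9 were tested and all 9 were called, 4 as higher and 5 as lower, with a median log2 change of -0.22, while 66.6% of all genes were called. POR, the reductase of the microsomal P450 enzymes, rose from 61.1 ± 2.62 to 78.6 ± 0.695 CPM (log2 0.37, SE 0.055, adjusted p = 1.75e-06). On the mitochondrial side, FDX1 fell from 52.1 ± 5.96 to 40.6 ± 0.307 CPM (log2 -0.36, adjusted p = 5.93e-05), and its reductase FDXR fell from 28.1 ± 3.12 to 23.0 ± 1.09 CPM (log2 -0.29, adjusted p = 0.00268). With scaling by library size alone FDX1 stood at a log2 change of -0.19 (adjusted p = 0.0311), and the call on FDXR was lost (log2 -0.11, adjusted p = 0.217), where 7 of the 9 genes were called. CYB5B, the outer mitochondrial membrane form of cytochrome b5, fell by 0.52 on the log2 scale (adjusted p = 8.23e-10), and PGRMC1, a heme-binding membrane protein that associates with P450 enzymes, rose by 0.62 (adjusted p = 5.73e-11).

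**Figure D5:**
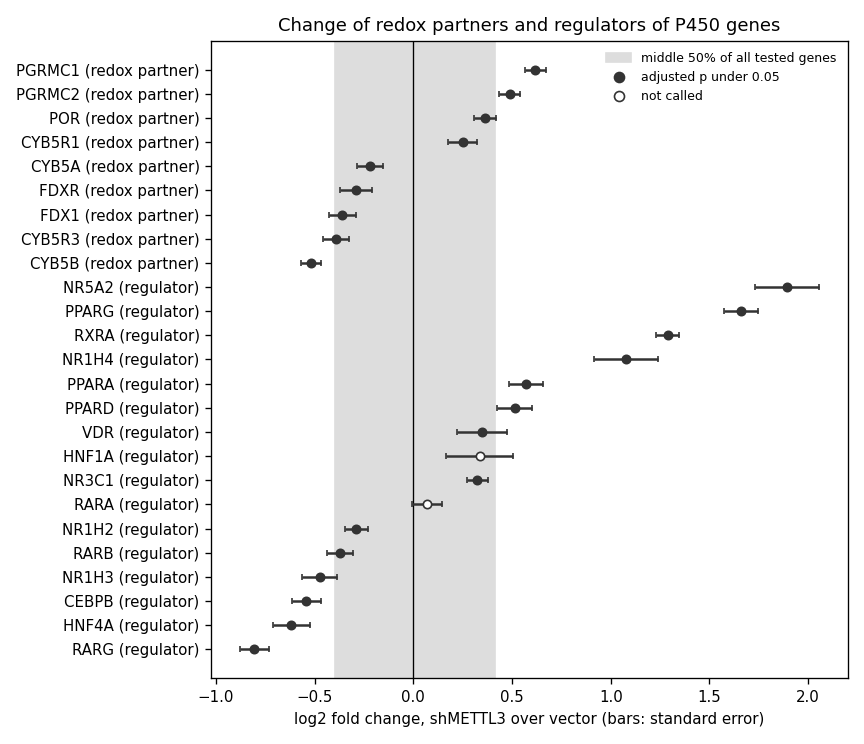
Fitted log2 fold change (shMETTL3 over vector, bars for standard errors) of the 9 tested redox partners and the 16 tested regulators of P450 genes, filled points for an adjusted p under 0.05, and the middle 50% of all tested genes in grey. NR5A2, PPARG, RXRA and NR1H4 lie above 1, RARG is the lowest at -0.80, and the partners lie between -0.52 and 0.62.

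Of 24 transcription factors known to control P450 genes, 16 were tested and 14 called, 8 as higher and 6 as lower, with a median log2 change of 0.33, beside the 66.6% called over all genes. The xenobiotic sensors were barely detected, with NR1I2 (PXR) at 0 in 5 of 6 libraries and 2 counts in the other, and NR1I3 (CAR) at 10, 4 and 3 counts in vector and 16, 11 and 8 in shMETTL3. Their shared partner RXRA rose from 37.1 ± 1.84 to 90.5 ± 2.80 CPM (log2 1.29, adjusted p = 8.68e-17). The receptors for fatty acids rose together, PPARG from 9.10 ± 0.678 to 28.7 ± 1.20 CPM (log2 1.66, adjusted p = 2.1e-15), PPARA by 0.57 (adjusted p = 1.79e-06) and PPARD by 0.51 (adjusted p = 9.28e-06). NR5A2, a driver of bile acid synthesis genes, rose from 2.11 ± 0.234 to 7.83 ± 0.652 CPM (log2 1.89, adjusted p = 5.46e-11), and the bile acid receptor NR1H4 rose by 1.08 (adjusted p = 1.59e-06). By contrast, the hepatic factor HNF4A fell by 0.62 (adjusted p = 1.9e-06), CEBPB fell by 0.54 (adjusted p = 3.53e-07), and the retinoic acid receptor RARG fell by 0.80 (adjusted p = 1.3e-10). Whether any of these bears on a P450 gene was not tested.

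The GGACT pentamer, the commonest form of the m6A consensus, occurred at a median of 0.891 per kilobase in the canonical transcripts of the tested P450 genes, from 0.379 to 2.15, against a median of 0.919 over 13534 tested genes. No m6A measurement was used here, and a pentamer is not a methylated site.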

How the data were processed

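Total RNA of A549 cells was sequenced in 3 vector and 3 shMETTL3 libraries, grouped by the sample titles. The authors deposited raw counts per gene symbol, whole numbers without normalization. Their processing notes name cutadapt 3.0, HISAT2 2.2.1, SAMtools 1.13, HTSeq 0.13.5 and hg19, and the annotation and strand setting are not given in the sources used here.

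The test was that of edgeR 4.0.16 under R 4.3.3 (filterByExpr at its minimum count of 10, TMM factors, glmQLFit and glmQLFTest with the group as the only term), and p-values were adjusted by Benjamini-Hochberg over 15125 genes, with calls at an adjusted p under 0.05. CPM used TMM-scaled library sizes, and RPKM used exon lengths from GENCODE release 44 mapped to GRCh37, which matched 90.4% of tested genes. Promoters came from RefSeq GRCh38.p14. The functions were tested on simulated counts. No count column was left unused.

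Alternatives were other scalings, filters and thresholds, DESeq2 1.42.0, voom from limma 3.58.1, a replicate block and each library left out in turn. Members and gene lists were chosen with earlier results of these data known. Of the 16 tested members 15 are named and 1 is not reported here, with the values of each library for those past a log2 change of 1 and the 3 most abundant per length. POR, FDX1 and FDXR are always given, and of the other partners and regulators those called with a log2 change of at least 0.5 in either direction. Other values were added to the text after they were seen.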

Additional observations from a re-analysis of the deposited data

How the results depend on the processing

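Calls on single P450 genes held under nearly every alternative. Of 221 values for the 16 tested genes, 219 kept their direction and their side of the threshold. Under scaling by library size alone CYP2R1 turned from -0.10 to 0.077, not called either way, and CYP26B1 became called at 0.24. Of 210 values for 15 other genes, 209 held, the exception being FDXR at -0.11 with that scaling. A minimum absolute log2 change of 1 left 2668 genes in all, 3 P450 genes, all 3 higher and 0 lower, with 0 in the fatty acid group, 1 in the vitamin group, 0 in the orphan group, 0 redox partners and 4 regulators, as these changes were mostly smaller. Requiring at least 10 counts in every library left 1 xenobiotic gene, CYP3A5, as CYP2E1 among others was no longer tested. In the steroid group no filter gave 2 calls, and leaving out 1 library gave 0 to 1. With 1 library left out, 13 to 14 P450 genes were called, 10 to 11 as higher and 3 as lower, of 9410 to 10072 genes in all. Deviations of libraries with the same replicate number correlated at 0.0694, -0.0237 and 0.0390, and those with different numbers at -0.0869 to 0.0469. Correlations this small among 3 libraries per group cannot settle whether the numbers mark pairs. A fit with the replicate number as a block called 13 P450 genes and 10111 genes in all. Of the 16 tested regulators, 13 to 15 were called under the alternatives other than the minimum change. DESeq2 called 13 P450 genes and 9234 genes in all. The 35 untested genes had at most 23 counts in a library, and whether deeper libraries would bring them past the filter was not tested.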

Other observations

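TBXAS1, thromboxane A synthase, is a P450 enzyme whose symbol does not begin with CYP. Its counts were 23, 19 and 17 with vector and 124, 147 and 129 with shMETTL3, a log2 fold change of 2.64 (adjusted p = 1.46e-12 by the same edgeR test), with every shMETTL3 library above every vector library. The prostacyclin synthase PTGIS had 1 count in 1 library and was not tested. Among the P450 genes left out of the membership, CYP1A1 had 5, 2 and 1 counts with vector and 735, 769 and 609 with shMETTL3. It entered the test through shMETTL3 alone and so had to differ, and the ratio of its summed counts, corrected for library size, was 244 with an exact 95% interval of 123 to 565 for counting error. CYP1B1 rose by 0.75 on the log2 scale (adjusted p = 4.64e-13), while the cholesterol synthesis gene CYP51A1 fell by 1.32 (adjusted p = 1.3e-06), and CYP1A2 was at 0 in all 6 libraries. Blood, fibroblast and endothelial markers gave mixed values. PTPRC had at most 1 count and CD3E and VWF were at 0, whereas CD14 had 6, 5 and 16 counts in vector and 125, 117 and 105 in shMETTL3, and CDH5 had 0, 0 and 2 against 30, 28 and 30. The blood marker HBB had 18, 14 and 26 counts against 2, 6 and 0. CDH5 entered the test through shMETTL3 alone and HBB through vector alone, so the direction of their calls was fixed by the filter. CD14 also entered through shMETTL3, since its vector counts did not all reach the filter's minimum of 10, which favours a rise. Of the fibroblast markers 2 were tested, of which COL1A1 rose by 0.90 on the log2 scale and LUM was not called. The summed levels ran from 1.26 to 2.64 CPM in vector and 6.23 to 7.12 CPM in shMETTL3 for blood, from 6.69 to 9.81 and 14.1 to 14.6 CPM for fibroblasts, and from 0 to 0.245 and 1.5 to 2.33 CPM for endothelium.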
